A study of Rattus norvegicus with 32 samples.

Results

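C6 cells pre-treated with Losartan and then given angiotensin II (Ang II) were compared with untreated cells after 6 h, which asks what differed from untreated cells while the AT1 receptor was blocked. The comparison rests on the 8 arrays named by treatment as Ang II plus Losartan or Control at 6 h, out of 32 arrays in the series. C6 is a rat glioma line grown in culture. The Ang II+Los cells received 10 µM Losartan for 30 min before 100 nM Ang II, and the Control cells received neither. Each group had 4 arrays, numbered 1 to 4, and the 4 treatments of 1 number at 1 time were hybridised together on 1 glass slide, always with Control at the same place and Ang II+Los at another. Place on the slide and treatment therefore cannot be told apart. RNA was measured on single-colour Agilent arrays, and a value below is a normalised log2 signal, on which a difference of 1 is 2-fold. Nothing in the labels says that the 4 replicates came from separate cultures, so the tests measure the spread between these arrays, and their number limits the precision. No group received Losartan alone, so the comparison joins what Losartan, Ang II and its remaining AT2 signal did.

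Ang II acts on AT1, which couples to Gq, calcium, protein kinase C and growth factor signalling, and on AT2, which often opposes it. Losartan is a selective AT1 antagonist. In glioma cells Ang II has been linked to growth and vessel formation, so genes of DNA replication, mitosis, matrix and growth factors were followed, together with stress pathways of the endoplasmic reticulum (ER). When unfolded protein builds up in the ER, the sensors PERK, IRE1 and ATF6 raise chaperone genes through XBP1 and ATF6, and amino acid supply genes and the death factor CHOP through ATF4. E2F factors drive the genes that copy DNA at entry to S phase.

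The receptor genes themselves gave no usable signal. The probes for Agtr1a and Agtr1b, the rat AT1 genes, and for Agtr2 were well above background on 0 of the 8 arrays, so no change in them could be measured. Agtrap, whose product binds AT1, had a signal on all 8 and a log2 difference of -0.13 ± 0.07 (standard error), which did not pass the test (unadjusted p = 0.0819). Of 20 listed genes of the renin-angiotensin system 10 could be tested. Only Prep, a peptidase that cleaves angiotensin peptides, passed the fold and p limits among those 10, at -0.27 ± 0.08 on the log2 scale, and it no longer did without replicate 1, 2 or 4.

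The cells carried 15 of 20 glioma and glia markers well above background on all 8 arrays, among them Nes, Vim, S100b, Sox2 and Pdgfra. Past the limits, Cnp (0.30) and Glul (0.37) rose and Olig1 (-0.32) fell, of 15 tested, and their part in the results was not tested. Gfap was well above background on 1 array, and Olig2 and Slc1a3 on 0. Of markers of other cell types, the leukocyte gene Ptprc, the endothelial genes Pecam1 and Tek and the blood gene Hbb were at background on all 8 arrays, while the endothelial genes Cdh5, Flt1 and Vwf and the globin gene Hba-a2 were well above it on all 8. Other listed microglia and macrophage genes, such as Cd14, Cx3cr1 and Csf1r, were well above background on 8 of 8, in a total of 8 of 12 on that list. None of the 9 tested microglia markers passed the limits. Of 6 tested neuron markers Map2 fell by 0.39 and Tubb3 by 0.75 on the log2 scale past the limits, and their part in the results was not tested.

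The arrays of replicates 2 and 4 stood apart from those of replicates 1 and 3 in ER stress genes, and the differences described below have to be read with that in mind. Ddit3, which encodes CHOP, had a signal of 10.21, 15.03, 10.42 and 14.87 in Control replicates 1 to 4. In Ang II+Los it was 9.88, 12.56, 10.53 and 12.78. Control replicates 2 and 4 were the highest of all, and the Ang II+Los arrays of the same slides lay between them and the arrays of the other slides. On those slides the Ang II arrays read 12.80 and 12.95 and the Ang II+PD arrays 12.83 and 12.65, so the 3 treated groups were alike there. At 3 h the same gene was near 15 on Control replicates 2, 3 and 4 (15.13, 15.03 and 15.02) and on Ang II+Los replicate 3 (14.97), and near 10 on the other Ang II+Los arrays (10.17, 10.80 and 10.15). Replicates 1 to 3 at 6 h were scanned on 1 day and replicate 4 on another. What set these arrays apart was not tested.

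**Figure D1:**
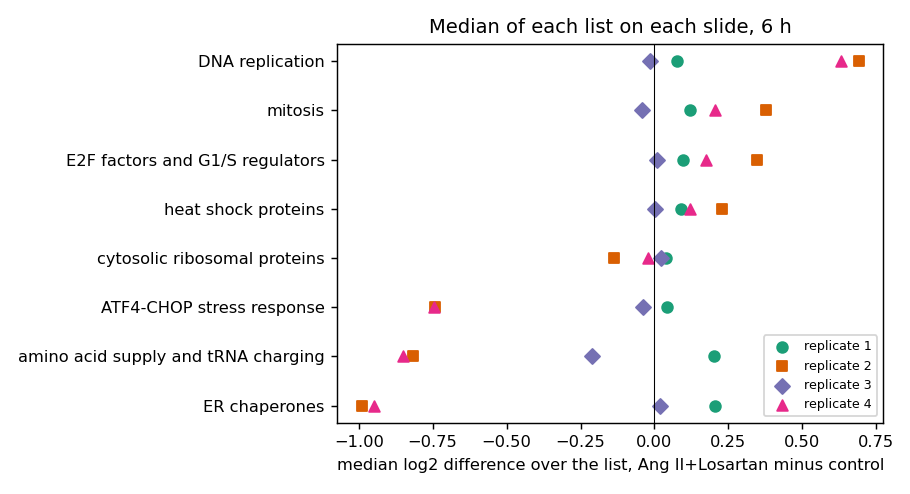
Median log2 difference between Ang II+Los and Control at 6 h over the tested members of 8 gene lists (horizontal axis, 1 list per line), with 1 symbol for each slide (replicate number). On slides 2 and 4 the ER chaperones had medians of -0.99 and -0.95 and DNA replication genes 0.69 and 0.63, while slides 1 and 3 lay between -0.02 and 0.20 for both lists.

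Across 16441 genes, 224 (1.36%) differed between Ang II+Los and Control at an adjusted p under 0.05 (limma with the slide as a block, Benjamini-Hochberg), 131 higher and 93 lower with Losartan and Ang II. The changes were small. Their median size was 0.45 on the log2 scale, the largest was a fall of 1.22 (RGD1564983, a gene without a symbol), and 223 of the 224 went the same way in all 4 pairs. The arrays of the groups did not overlap for 51 of the 224. The counts of 223 and 51 follow in part from the call itself and were not set against all genes. These calls were near the threshold: the lowest adjusted p was 0.0264, and without replicate 2 or without replicate 4 there were 0, with 1922 and 2313 genes at an unadjusted p under 0.05. Of the 224, 218 and 223 still passed the fold and p limits then, all in the same direction. Without replicate 3 there were 667 calls and without replicate 1 only 3. Under a fit of the 8 arrays alone, without the Ang II and Ang II+PD arrays that the main fit also used, there were also 0. A paired test per gene gave 0 as well. The main fit takes its spread from all 4 groups, so a standard error below is not that of the 4 within-slide differences alone.

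The study called genes by t-tests at p under 0.05, with changes described from 1.2-fold up, so its lists are not comparable with those below. A wider set was defined here by an unadjusted limma p under 0.05 and at least 1.2-fold either way. It held 1071 genes higher (6.51%) and 1139 lower (6.93%), with a median of 1.30-fold. Only 23 genes passed 2-fold. At an unadjusted p under 0.05, 822 of the 16441 genes would pass by chance if nothing changed, and 3607 did. The probes of the genes followed most closely lay, in the rn4 build of the file headers, at chr3:13787739-13787798 (Hspa5), chr7:67252505-67252564 (Ddit3), chr19:40974359-40974418 (Aars), chr1:98641028-98641087 (E2f8) and chr12:5809732-5809791 (Hsph1). Members of each gene list are counted below against those background shares.

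**Figure D2:**
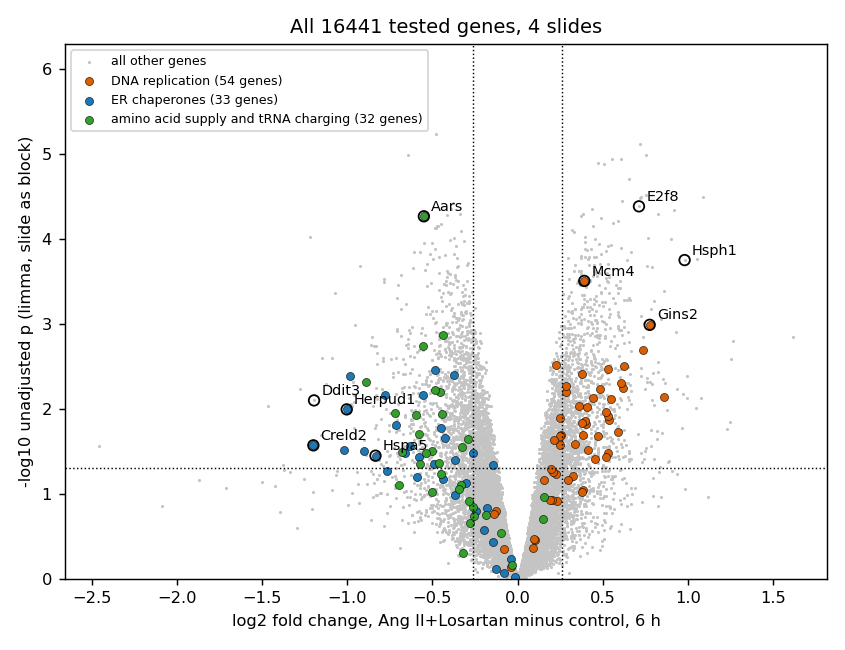
Log2 fold change (Ang II+Los minus Control, 6 h, horizontal axis) against the unadjusted limma significance as -log10 (vertical axis) for all tested genes, with dotted lines at both limits and with 9 genes ringed and named. DNA replication genes lie to the right, and ER chaperones and amino acid genes to the left, and Aars stands highest of the amino acid genes and Mcm4 of the replication genes.

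DNA replication genes were higher in Ang II+Los. Of 55 listed, 54 were tested, 50 lay above 0, and 30 rose past the limits while none fell. Their median was 0.38 on the log2 scale, against -0.01 over all genes. One of them, Mcm4, passed the adjusted threshold. The rise covered origin licensing (Orc1l, Cdc6), the helicase (Mcm2, Mcm4, Mcm5, Mcm6, Gins2), the primase complex (Pola1, Pola2), the sliding clamp Pcna and thymidylate synthase (Tyms).

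Gins2, a subunit of the GINS complex that activates the helicase, had Control signals of 8.07, 6.61, 7.86 and 6.84, and Ang II+Los signals of 8.26, 8.0, 8.21 and 8.02. The Control arrays of replicates 2 and 4 were low, and all 4 Ang II+Los arrays lay near the higher Control arrays. The difference was 0.78 ± 0.18 (1.71-fold, adjusted p = 0.0554). Mcm4, a subunit of the MCM2-7 helicase, rose by a similar amount on every slide, from 10.01, 9.23, 10.15 and 9.54 to 10.28, 9.75, 10.56 and 9.91. That was 0.39 ± 0.08 (1.31-fold, adjusted p = 0.0394), and its 2 probes gave 0.23 and 0.55. Mcm5 read 9.97, 8.31, 10.07 and 8.63 in Control and 10.30, 9.43, 9.84 and 9.54 in Ang II+Los, a gain on slides 1, 2 and 4 and a loss on slide 3. Among the helicase subunits the differences were 0.41 for Mcm2, 0.53 for Mcm6 and 0.54 for Mcm5, past the limits, and 0.38 for Mcm3 and 0.10 for Mcm7, which were not. Pola2 rose by 0.74 ± 0.19 and Cdc6 by 0.63 ± 0.17. Mcm10, which joins the helicase at the origin, had both probes well above background on only 2 of 4 Control arrays, though 1 probe was so on all 8 arrays. Its fitted difference of 0.86 ± 0.26 (its 2 probes gave 0.54 and 1.19) rests partly on signals near background.

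The list depended on slides 2 and 4. Its median difference was 0.08, 0.69, -0.02 and 0.63 on slides 1 to 4, and the members past the limits numbered 9 without replicate 2 and 11 without replicate 4. Gins2, Mcm4, Pola2 and Cdc6 passed the limits without either. Mcm2, Mcm5, Mcm6, Mcm10, Orc1l, Pcna and Tyms did not in either case, nor did Pola1 without replicate 2.

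Of 54 tested members, 47 had a RefSeq promoter entry, and 13 of these (27.7%) held an E2F motif (TTTCCCGC, TTTCGCGC, TTTGCCGC or TTTGGCGC, either strand) in the 250 bases before the start, against 1.73% of all 33469 promoters.  Promoter stretches of 4 genes that passed the limits show where the letters stand, with a match, or 2 that overlap, in capitals (1 of 3 matches for Mcm5) (RefSeq, GRCr8, 5′ to 3′ on the gene's strand).
Mcm2 (chr4:122918095-122918138, - strand): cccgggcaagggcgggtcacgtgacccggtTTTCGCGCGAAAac
Mcm5 (chr19:13488775-13488812, + strand): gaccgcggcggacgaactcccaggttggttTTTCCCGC
Mcm6 (chr13:42404450-42404521, - strand): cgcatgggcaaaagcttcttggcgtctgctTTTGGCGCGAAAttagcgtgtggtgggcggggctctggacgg
Tyms (chr9:120776084-120776150, - strand): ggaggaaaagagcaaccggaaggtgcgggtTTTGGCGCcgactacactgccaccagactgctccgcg
In Mcm2 and Mcm6 a match on each strand overlaps to give a longer run. Of the 13 genes with a match, 8 passed the limits upward, the others being Pola1, Slbp, Orc5l and Mcm8, and Mcm7 and Orc3l, which also hold a match, were at 0.10 and -0.13. Of all 54 tested members 30 (55.6%) passed upward. The motif was also in 4 of 58 promoters of mitosis genes (6.9%) and 2 of 17 of G1/S regulators (11.8%). None of these passed the limits: Kif18a (0.21), Cdc2 (0.12), Smc1a (0.01), Stmn1 (-0.01), Cdc25a (0.11) and E2f3 (0.05).

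Regulators of the G1/S step followed to a lesser extent. Of 24 tested, 7 rose, 1 fell and the median was 0.16. E2f8, an E2F family repressor that is itself an E2F target, had Control signals of 7.81, 6.62, 7.92 and 6.52 and Ang II+Los signals of 8.55, 7.62, 8.20 and 7.35. It was higher on all 4 slides although the groups overlapped, with a difference of 0.71 ± 0.11 (1.64-fold, adjusted p = 0.0353). Cdk2, the kinase that starts S phase, rose from 9.02, 8.46, 9.0 and 8.47 to 9.51, 9.17, 9.36 and 8.85 (0.48 ± 0.09, adjusted p = 0.0382). Cdkn2c, an inhibitor of CDK4 and CDK6, rose by 0.41 ± 0.10, and Skp2, which targets p27 for destruction, by 0.37 ± 0.09 (0.06 and not past the limits with normexp background correction). E2f1 (0.46), Ccne1 (0.28) and Ccne2 (0.65), the latter pair encoding the cyclins of CDK2, rose past the limits with all slides but not without replicate 2 or 4.

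Of 67 mitosis genes tested, 15 rose and none fell, with 59 above 0 and a median of 0.17. Aurkb, the kinase of the chromosomal passenger complex, read 9.36, 7.97, 9.34 and 8.38 in Control and 9.98, 8.81, 9.55 and 8.80 in Ang II+Los (0.52 ± 0.09, adjusted p = 0.0368). Pbk, a mitotic kinase, rose by 0.48 ± 0.09 (adjusted p = 0.0386), Mad2l1 of the spindle checkpoint by 0.37 ± 0.09 and the condensin subunit Smc2 by 0.52 ± 0.14. Cdc2 (0.12), the main mitotic kinase, and Top2a (0.18) did not pass. Without replicate 2 the mitosis count was 5, and without replicate 4 it was 13. Of 17 tested genes of the anaphase-promoting complex, 2 passed the limits, Cdc26 (0.42 ± 0.08, adjusted p = 0.0382) and Cdc27 (0.43 ± 0.12). With normexp background correction Cdc27 (0.07) and Smc2 (0.15) no longer passed. Other genes the study singled out in this area were Ccnb1 (0.31), Nek2 (0.30) and Nup107 (0.51), which passed the limits, and Anapc10 (0.19), Cdc20 (0.19), Bub1b (0.24), Psma1 (0.23) and Psmd14 (0.20), which were under 1.2-fold. Ccnb1 did not pass without replicate 2, nor Nek2 without replicate 1 or 2.

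**Figure D3:**
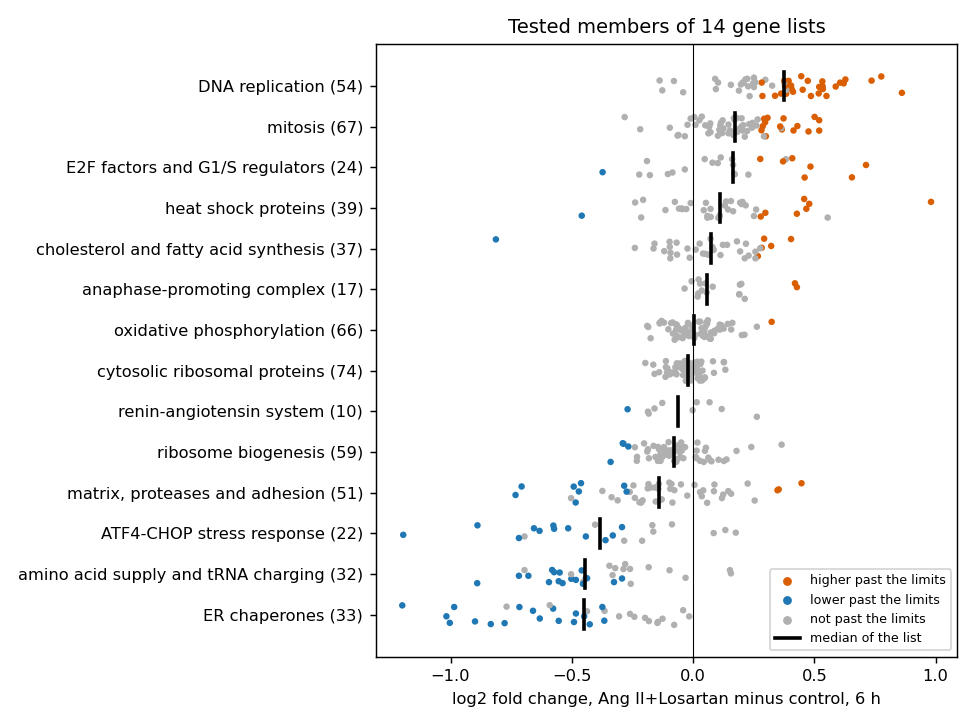
Log2 fold change (Ang II+Los minus Control, 6 h, horizontal axis) of each tested member of 14 gene lists, with the number tested in brackets and a bar at the median. Coloured points passed the limits. DNA replication leads on the high side (30 of 54 higher) and ER chaperones (18 of 33 lower), amino acid supply (17 of 32) and ATF4-CHOP genes (12 of 22) on the low side, while ribosomal proteins (0 of 74) and oxidative phosphorylation (1 of 66) lie around 0.

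ER chaperone and folding genes were lower in Ang II+Los. All 33 tested members lay below 0, 18 fell past the limits, none rose, and the median was -0.45. Not one passed the adjusted threshold, and 3 were lower on all 4 slides. Hspa5, the chaperone BiP, had Control signals of 13.28, 15.90, 13.40 and 15.59, and Ang II+Los signals of 13.62, 14.14, 13.25 and 13.82. The fall of 0.83 ± 0.35 on the log2 scale lay on slides 2 and 4, slide 1 went up and slide 3 moved little. Herpud1, a component of ER-associated degradation, read 10.20, 13.40, 10.56 and 13.35 against 10.13, 11.34, 10.43 and 11.60 (-1.0 ± 0.33, adjusted p = 0.111). Xbp1 read 9.72, 10.95, 9.45 and 10.98 against 9.44, 9.32, 9.5 and 9.72 (-0.78 ± 0.24), and here the Ang II+Los arrays of slides 2 and 4 were back at the level of slides 1 and 3. The sensor Atf6 fell by 0.99 ± 0.28, and Creld2 (-1.2) and the co-chaperones Dnajb9 (-1.02) and Dnajc3 (-0.90) fell with it. Hspa5, Xbp1, Creld2, Dnajb9 and Dnajc3 did not pass the limits without replicate 2 or 4. Pdia3, a disulfide isomerase, was at -0.02. Sec11c (-0.48 ± 0.13) and Edem1 (-0.37 ± 0.10) kept to the limits without replicate 2 or 4, and the list counted 3 members past them in either case. With the paired test per gene 0 ER chaperones, 0 ATF4-CHOP genes, 1 amino acid gene and 4 DNA replication genes passed the limits, and with the 8 arrays alone 6, 8, 10 and 16.

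The ATF4-CHOP list had 12 of 22 tested members lower and none higher, with a median of -0.38. Ddit3, whose values are given above, fell by 1.2 ± 0.37 (2.29-fold, adjusted p = 0.103). Trib3, a pseudokinase induced by ATF4 and CHOP, read 7.59, 12.43, 9.39 and 12.02 in Control and 7.55, 11.36, 8.96 and 11.24 in Ang II+Los. It was lower on all 4 slides, by as little as 0.04 on slide 1, and on average by 0.58 ± 0.15 although the slides spanned a far wider range. Xpot, an exporter of tRNA, fell by 0.63 ± 0.16, Nupr1 by 0.89 ± 0.37, the cystine transporter Slc7a11 by 0.72, the eIF2 phosphatase subunit Ppp1r15a by 0.66 and the sensor kinase Eif2ak3, PERK, by 0.52. Atf4 itself was at -0.16 (unadjusted p = 0.0798). Without replicate 2 or without replicate 4 the count was 3, and Ddit3 and Nupr1 were among those that no longer passed (Ddit3 -0.77 and -0.90).

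Amino acid supply and tRNA charging went the same way, with 17 of 32 tested members lower, none higher and a median of -0.45. The list shares members with the ATF4 list. Aars, alanyl-tRNA synthetase, was the one that passed the adjusted threshold. It read 12.04, 13.30, 12.64 and 13.19 in Control and 11.72, 12.69, 12.16 and 12.39 in Ang II+Los, lower on every slide by 0.55 ± 0.09 (1.46-fold, adjusted p = 0.0353). Phgdh, the first enzyme of serine synthesis, read 13.88, 14.80, 13.88 and 14.84 against 13.68, 14.16, 13.70 and 14.10 (-0.44 ± 0.10, adjusted p = 0.0586). The serine phosphatase Psph fell by 0.59 ± 0.20, the arginine transporter Slc7a1 by 0.55 ± 0.14, the glycine transporter Slc6a9 by 0.89, Iars by 0.48 ± 0.14 and asparagine synthetase, Asns, by 0.44. Got1 was at 0.15. Psph and Asns did not pass without replicate 2 or 4, Slc6a9 without replicate 2 or Iars without replicate 4. The list's median was 0.20, -0.82, -0.21 and -0.85 on slides 1 to 4, and 4 members passed without replicate 2 or without replicate 4.

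Motifs known from these pathways were looked for in the same way. The ER stress element, CCAAT and CCACG with 9 bases of any kind between them, on either strand, was found in the promoters of 7 of 26 ER chaperone genes with an entry (26.9%) and in 0.0657% of all promoters. Of those 7, Creld2, Dnajc3, Hspa5, Xbp1 and Calr fell past the limits, and Tra1 (-0.44) and Canx (-0.18) did not. None of the genes that fell passed without replicate 2 or without replicate 4. The capitals mark the element.
Hspa5 (chr3:38452943-38453015, + strand): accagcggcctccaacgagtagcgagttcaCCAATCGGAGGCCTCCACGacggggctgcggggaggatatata
Xbp1 (chr14:84604528-84604606, + strand): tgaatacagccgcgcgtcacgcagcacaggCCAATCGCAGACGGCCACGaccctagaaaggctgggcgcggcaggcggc
Dnajc3 (chr15:102432504-102432582, + strand): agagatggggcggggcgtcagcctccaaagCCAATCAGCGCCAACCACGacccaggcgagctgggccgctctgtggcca
Creld2 (chr7:121789209-121789287, + strand): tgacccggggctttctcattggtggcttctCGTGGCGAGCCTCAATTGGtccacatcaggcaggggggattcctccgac
Calr (chr19:40213117-40213183, + strand): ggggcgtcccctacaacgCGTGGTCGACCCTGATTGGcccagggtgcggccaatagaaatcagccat
Creld2 and Calr hold it on the opposite strand. The core of the element bound by C/EBP-ATF pairs, TGATGNAA on either strand, was in 9 of 28 amino acid genes with an entry (32.1%), in 2 of 19 ATF4-CHOP genes (10.5%) and in 3.40% of all promoters. Of the 9 amino acid genes, Pycr1, Iars, Tars, Aars, Slc7a1 and Slc1a4 fell past the limits, as did 53.1% of that list. Got1 (0.15), Mars (-0.29) and Nars (-0.50) did not pass. The ATF4-CHOP genes with a match, Trib3 and Nupr1, fell past the limits. The stretches of 4 genes that fell show it.
Aars (chr19:55908340-55908407, + strand): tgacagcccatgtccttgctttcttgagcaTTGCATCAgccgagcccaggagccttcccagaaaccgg
Iars (chr17:15193653-15193706, - strand): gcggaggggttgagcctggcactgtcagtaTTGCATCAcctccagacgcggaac
Slc7a1 (chr12:11664428-11664487, + strand): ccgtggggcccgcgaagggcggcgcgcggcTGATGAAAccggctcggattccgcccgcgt
Trib3 (chr3:161275534-161275584, - strand): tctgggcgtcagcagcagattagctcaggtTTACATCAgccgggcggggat
Phgdh, Asns and Ddit3 are not among the genes with a match in this window.

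Heat shock proteins, mostly cytosolic with a few of mitochondria and ER, had another pattern. Of 39 tested, 7 rose, 1 fell and the median was 0.11. Hsph1, the HSP70 exchange factor HSP105, was the highest named gene of the comparison, with Control signals of 7.30, 7.23, 7.74 and 7.24 and Ang II+Los signals of 8.13, 8.87, 7.99 and 8.46. The groups did not overlap, and the difference was 0.98 ± 0.18 (1.97-fold, adjusted p = 0.0370). Stip1, which joins HSP70 to HSP90, rose by 0.48 ± 0.11, Dnaja1 by 0.46 ± 0.12 and Dnajb4 by 0.43 ± 0.10 (0.13 and not past the limits with normexp background correction). The inducible Hspa1b was at 0.55 ± 0.27 and did not pass (unadjusted p = 0.0664). Hspa8 (0.25) and Hsp90aa1 (0.26) were under 1.2-fold. Hspa4, another exchange factor, fell by 0.46 ± 0.08 (adjusted p = 0.0368) in a fit without Control replicate 2, for which no value was kept. The heat shock motif (GAA, TTC and GAA, or TTC, GAA and TTC, each 2 bases apart) was in 5 of 33 promoters of the list (15.2%) and in 0.663% of all promoters, and Hsph1 is shown as the highest gene, with the motif in capitals.
Hsph1 (chr12:10427302-10427367, + strand): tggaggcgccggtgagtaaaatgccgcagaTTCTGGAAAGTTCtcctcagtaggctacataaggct
The other 4 with a match were Hspa8, Hspd1 (0.06), Hspe1 (0.06) and Serpinh1 (-0.24), none of them past the limits. Without replicate 2 or without replicate 4 the list had 4 members higher.

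**Figure D4:**
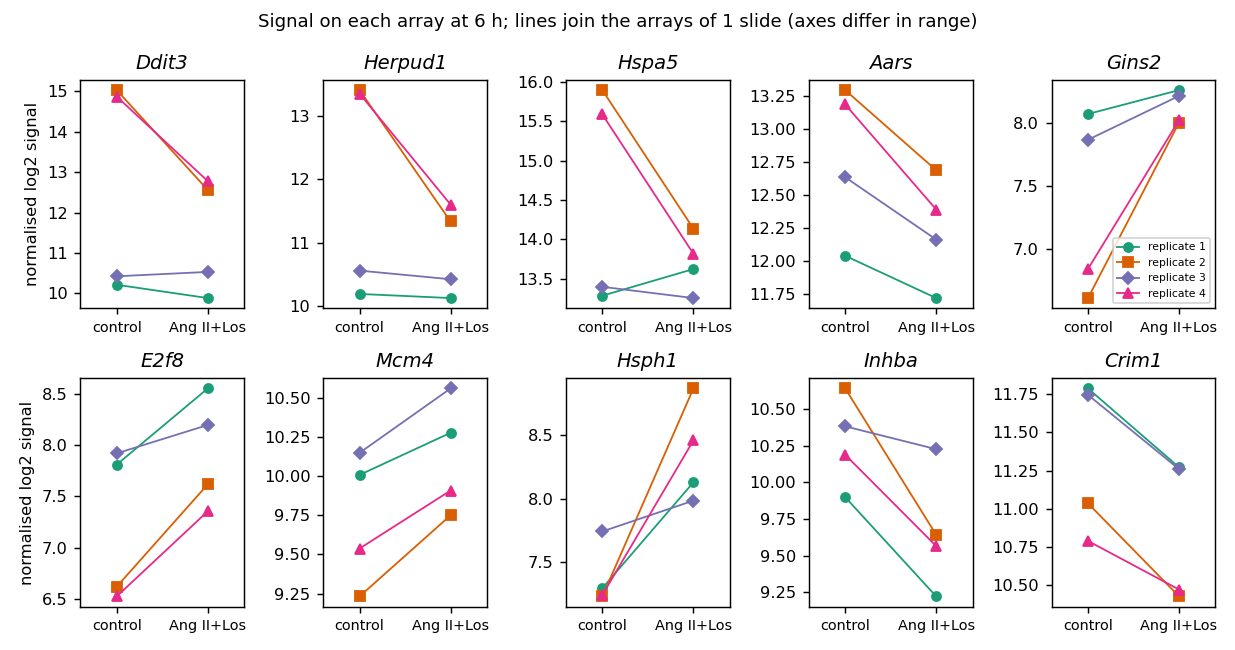
Normalised log2 signal of 10 genes in Control and Ang II+Los at 6 h, with a line joining the arrays of each slide (replicate 1 to 4) and a separate vertical range for each gene. Ddit3, Herpud1 and Hspa5 fell on slides 2 and 4 from a high Control level, whereas Aars, E2f8, Mcm4, Hsph1, Inhba and Crim1 moved the same way on all 4 slides.

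Signalling and growth factor genes past the limits were small in number. Src, a tyrosine kinase downstream of AT1, read 6.77, 6.84, 7.04 and 6.96 in Control and 6.59, 6.41, 6.63 and 6.51 in Ang II+Los. The groups did not overlap, and it fell by 0.37 ± 0.07 (adjusted p = 0.0390). Rock1 rose by 0.52 ± 0.15 and the calcium channel Itpr2 by 0.35 ± 0.10. Of 38 tested genes of AT1 and G protein signalling 4 rose (10.5%, against 6.51% of all genes) and 1 fell (2.63%, against 6.93%), and 3 rose and 2 fell without replicate 2. Of 30 tested EGF receptor and growth factor genes 3 rose (10%) and 2 fell (6.67%), and 0 rose and 1 fell without replicate 2. Map2k6, a kinase that activates p38, rose by 0.86 ± 0.18 (adjusted p = 0.0432). Gdnf, the glial neurotrophic factor, read 5.72, 5.77, 5.18 and 5.80 in Control and 5.15, 4.96, 4.39 and 5.13 in Ang II+Los, a fall of 0.71 ± 0.17 (adjusted p = 0.0582) without overlap. Under normexp background correction Src, Itpr2 and Gdnf did not reach 1.2-fold with p under 0.05.

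TGF-beta family and matrix genes were mixed, and of 33 tested TGF-beta and BMP genes 2 rose and 5 fell. Inhba, the activin subunit, read 9.90, 10.64, 10.38 and 10.19 against 9.22, 9.64, 10.23 and 9.57 (-0.61 ± 0.12, adjusted p = 0.0382). Crim1, a membrane protein that binds BMPs, was lower on every slide, from 11.79, 11.04, 11.74 and 10.79 to 11.27, 10.43, 11.26 and 10.47 (-0.48 ± 0.09, adjusted p = 0.0368). Tgfb2 fell by 0.69 ± 0.25 and the receptor Tgfbr1 by 0.43, while Tgfb1 (0.34) and the BMP target Id1 (0.40 ± 0.11) rose. Tgfb2 did not pass without replicate 2 or 4, Tgfbr1 without replicate 4, or Tgfb1 without replicate 1, 2 or 4. The Tgfb2 probes gave -0.295 and -1.092, and only the latter passed the limits by itself. Of 51 matrix, protease and adhesion genes tested, 8 fell and 3 rose, with a median of -0.14. The laminin chain Lamb1 read 10.17, 12.03, 10.98 and 11.96 in Control and 10.04, 10.78, 10.65 and 10.75 in Ang II+Los (-0.73 ± 0.21), Fn1, fibronectin, fell by 0.47 ± 0.13 and the collagen chain Col1a2 by 0.28 ± 0.09. Without replicate 2 that list had 5 lower and 0 higher, and without replicate 4 it had 3 lower and 1 higher, with Col1a2 among those lost in both cases. The Fn1 probes gave -0.20 and -0.74, and only the latter passed the limits by itself.

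A set of genes had been chosen for quantitative PCR, and their array values follow. Ctgf fell by 0.46 ± 0.13, Vegfa by 0.37 ± 0.12 and Lamb1 as above, and Hbegf rose by 0.38 ± 0.14, all past the limits but not at the adjusted threshold. Vegfa did not pass without replicate 2 or 4, nor Hbegf without replicate 1 or 2. Bcar1 (-0.17) and the water channel Aqp2 (-0.23) had an unadjusted p of 0.0112 and 0.0256 but were under 1.2-fold, and Map2k4 (0.09), Prkca (-0.01) and Nlrp3 (0.13) did not pass. Of 3 genes named in the study but outside that set, Rev3l (-0.04) and Zyx (-0.16) did not pass, and Pias1 was at 0.33 ± 0.10 past the limits, not without replicate 1 or 2 or with normexp background correction (0.07). The Zyx probes differed, at -0.40, which passed the limits by itself, and 0.09, which did not.

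Other groups had small counts. Among 37 cholesterol and fatty acid genes 5 rose and 1 fell, led by Insig1, the sterol sensor (0.40 ± 0.08, adjusted p = 0.0407), with Nsdhl (0.28) and Idi1 (0.32), and without replicate 2 there was 1 higher. With normexp background correction the list had 0 higher and 2 lower and a median of -0.004, and Insig1, which passed whichever replicate was left out, was at 0.21. Of 28 immediate early genes 5 rose and 5 fell, and without replicate 2 it was 1 and 3. Maff, a small MAF factor, rose by 0.73 ± 0.16, Egr1 by 0.39 (not without replicate 2 or 4) and Klf4 fell by 0.30 ± 0.08. Among 59 ribosome biogenesis genes 4 fell (6.78%, against 6.93% of all genes), Pes1, Ppan, Gnl3 and Wdr3, by 0.27 to 0.34, and none rose, while without replicate 2 only 1 fell. Ipo4, an importin, was lower on every slide without overlap, at 11.74, 12.05, 11.80 and 12.06 against 11.39, 11.68, 11.51 and 11.71 (-0.34 ± 0.05, adjusted p = 0.0353). None of 74 ribosomal protein genes passed the limits. Of 27 tested NF-kB, inflammasome and chemokine genes, only Ccl7 (0.45) did, and not without replicate 2 or 4.

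Among genes with a symbol that passed the limits, moved the same way in all 4 pairs and were well above background on all 8 arrays, the highest outside these lists were Trpm8 (0.89), Map2k6 (0.86, above), Morc4 (0.82), Stil (0.79), Donson (0.77), Dck (0.76), Fignl1 (0.75) and Atad5 (0.72). Several are known from DNA replication and repair: Donson at the fork, Fignl1 in recombination, Atad5 in unloading the clamp, and Dck in supplying nucleotides. Donson read 6.56, 5.52, 6.82 and 6.05 in Control and 7.28, 6.82, 7.09 and 6.82 in Ang II+Los and did not overlap (adjusted p = 0.0368). Fignl1 had the lowest adjusted p of this set, 0.0264. By the same rule the lowest were Rdh8 (-1.12), Kctd19 (-0.96), Fam71f1 (-0.96), Gbp5 (-0.82), Mfsd6 (-0.79), Dnajc16 (-0.78), Pygm (-0.78), Slc8a2 (-0.77) and Lhfpl3 (-0.74), besides Herpud1, Nupr1 and Lamb1. Of these only Dnajc16 passed the adjusted threshold (0.0394). Of the genes named in this paragraph, those that did not pass when some replicate was left out were Trpm8 (replicate 1, 2 or 4), Kctd19 and Fam71f1 (replicate 2 or 4), Slc8a2 (replicate 1, 3 or 4, at -0.35 without replicate 1), Gbp5 (replicate 3), and Herpud1 and Nupr1 (replicate 2 or 4). With normexp background correction 5 of the 12 highest and 8 of the 12 lowest stayed past the limits. Of the genes named in this paragraph, Fignl1 (0.23), Morc4 (0.19), Stil (0.17), Dck (0.16) and Trpm8 (0.15) then fell under 1.2-fold. So did Dnajc16 (-0.23), Lhfpl3 (-0.20), Pygm (-0.13) and Slc8a2 (-0.10).

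The same arrays allow Ang II+Los to be set against Ang II alone, which is the test of what Losartan changed. No gene passed an adjusted p under 0.05 in limma (lowest 0.9998), and 175 genes (1.06%) passed the limits. At an unadjusted p under 0.05 there were 328 genes, fewer than the 822 of 16441 that would pass by chance. This test takes its spread from all 4 groups, with the outlying Control arrays of slides 2 and 4 among them. The low count therefore does not measure how little Losartan changed. Of the 224 genes that differed from Control, 24 had an unadjusted p under 0.05 against Ang II and 6 passed the limits. The same Ang II+Los arrays enter both comparisons, so the selection of the 224 can raise these counts, which are description only. No member of the DNA replication, ER chaperone, ATF4-CHOP or amino acid lists passed them, and those lists' medians against Ang II were 0.04, -0.03, -0.05 and -0.06. Hsph1 differed from Ang II by -0.06 ± 0.18, Gins2 by 0.16 ± 0.18, Ddit3 by -0.03 ± 0.37 and Aars by -0.16 ± 0.09. The named genes of lowest p against Ang II were Omd, a matrix proteoglycan, at -0.65 (unadjusted p = 0.000430) and Aqp2 at 0.39 (unadjusted p = 0.000904).

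Ang II against Control and Ang II+PD123319 against Control used the same 4 Control arrays, so their values stand beside those above as a description only. Hsph1 was at 0.98, 1.04 and 0.91 with Ang II+Los, Ang II and Ang II+PD. Gins2 was at 0.78, 0.62 and 0.49, and E2f8 at 0.71, 0.62 and 0.42. Ddit3 was at -1.2, -1.16 and -1.19. The ER chaperone list had medians of -0.45, -0.44 and -0.44, and the DNA replication list of 0.38, 0.30 and 0.22.

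**Figure D5:**
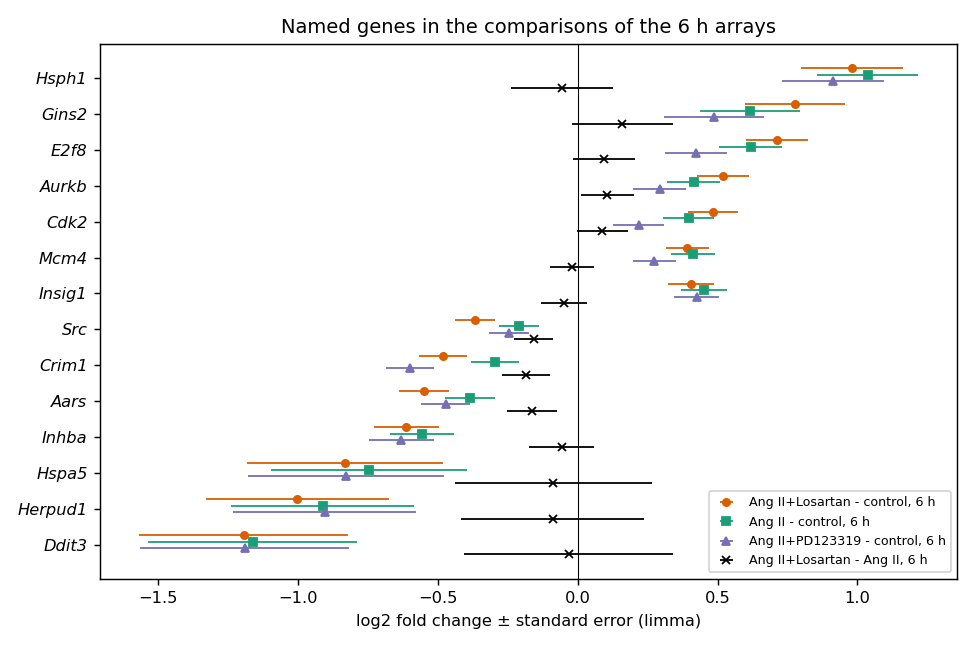
Log2 fold change ± standard error (limma) of 14 named genes in 3 comparisons with the shared Control arrays and in Ang II+Los against Ang II, all at 6 h. The 3 comparisons with Control lie side by side, for example -1.2, -1.16 and -1.19 for Ddit3, and the values against Ang II lie near 0.

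At 3 h the comparison had other arrays and slides. No gene of 13628 passed an adjusted p under 0.05 (lowest 0.178 in limma, with 2962 at an unadjusted p under 0.05), and 1352 genes were higher (9.92%) and 1487 lower (10.9%) past the limits. Among 13615 genes tested at both times, 1727 passed at 6 h and 2836 at 3 h, and 366 did so at both in the same direction, which is 21.2% of the first and 12.9% of the second. Another 72 passed in opposite directions. Of 51 DNA replication genes tested at both times, 22 were higher at 3 h and 14 at both. Of 32 ER chaperones 11 were lower at 3 h and 7 at both, and of 31 amino acid genes 14 and 8. Gins2 was at 0.87 at 3 h, Donson at 0.79, Herpud1 at -1.69, Trib3 at -2.45 and Inhba at -0.97. These 3 h values shared the spread in Ddit3 across slides given above. Hsph1 was at -0.80 at 3 h, from 7.44, 7.65, 7.54 and 7.12 in Control and 5.97, 5.22, 7.58 and 7.76 in Ang II+Los, with slides 1 and 2 low and slides 3 and 4 not. Aars, lower at 6 h, was at 0.08 at 3 h. The change between 3 h and 6 h was tested directly in limma on all 32 arrays: 0 of 13615 genes (0%) passed an adjusted p under 0.05 (lowest 0.142), and 2726 had an unadjusted p under 0.05. Without replicate 3 at both times 3 genes passed.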

How the data were processed

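RNA of C6 cells was labelled with Cy3 and hybridised to Agilent whole rat genome arrays, 4 to a slide. The authors scanned the arrays and extracted each spot with Agilent Feature Extraction 9.5.3.1 per the file headers, and deposited scanner intensity values, background-subtracted and not normalised between arrays. They also deposited a table of log2 values, which equalled log2 of the processed intensity at 100% of the spots compared (tolerance 1e-06) and was blank for 35.3% of values at 6 h.

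From the intensities, log2 values without outlier spots were averaged per probe and normalised by cyclic loess (3 iterations, span 0.7) over the 16 arrays of a time. A probe was kept where some group had it well above background on each of its 4 arrays, kept probes were averaged per gene name, and 16441 genes were fitted with limma 3.58.1 in R 4.3.3 on 16 arrays, with the slide as a fixed block and Benjamini-Hochberg adjustment. The numbers pair the arrays: deviations of arrays of the same number correlated at 0.614 to 0.704, and those of other pairs at 0.0983 or less. On the 8 arrays 64.2% to 75.1% of spots were well above background. The fit was tested on simulated data. A call was an adjusted p under 0.05, or, as limits, an unadjusted p under 0.05 with at least 1.2-fold. Genes were named by rule: the 12 highest and 12 lowest with a symbol that passed the limits, moved the same way in all 4 pairs and were well above background on all 8 arrays, up to 4 such members of each list of lowest p plus members that define it, the angiotensin receptors with Agtrap, and genes the study measured or named. Genes printed only for a promoter motif, as a cell marker or as one of the few of a list past the limits were added after their values were seen. The comparison, gene lists and defining members were chosen with earlier results of these data known. Alternatives were other tests, normalisations, background corrections, filters and fits, and leaving out each replicate. Leave-one-out counts of list members were added after seeing the data.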

Additional observations from a re-analysis of the deposited data

Results flagged for a closer look

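Among the 4 within-slide differences (Ang II+Los minus Control, log2) of each named gene and list, 7 of 196 sets held a value far from the other 3 by Dixon's criterion, which chance gives in about 5% of sets. On slide 3 the heat shock genes Stip1 (0.001, the others 0.595 to 0.710) and Hspa8 (-0.155, the others 0.335 to 0.435) and the collagen gene Col1a2 (-0.091, the others -0.365 to -0.323) stood apart. On slide 2 the kinetochore gene Nuf2 was at 0.569 (the others 0.165 to 0.226), the median of the immediate early genes at 0.056 (the others -0.047 to -0.033) and that of nuclear pore and transport genes at 0.130 (the others -0.031 to -0.004). On slide 1 Bcar1 was at -0.037 (the others -0.241 to -0.206). Their cause was not tested.

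Maff differed from Control in opposite directions at the 2 times, higher on all 4 slides at 6 h (0.73) and lower on all 4 at 3 h (-0.33). The change of 1.056 did not pass the test of the difference itself (unadjusted p = 0.183, adjusted p = 0.422 in limma), and 152 of 13376 genes showed the same kind of opposition.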

How the results depend on the processing

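The 224 genes at an adjusted p under 0.05 became 0 without the replicate block (683 at an unadjusted p under 0.05). They became 0 with a paired test per gene (1500), with an unpaired test per gene (488) and with the 8 arrays alone (2060). The count was 1 with no filter on dim probes, 426 with probes well above background on all 16 arrays and 1681 with array weights. Leaving out 1 replicate gave 0 to 667. The genes higher past the limits (1071) became 310 without the block, 327 paired, 169 unpaired and 454 with normexp background correction, and 656 to 1559 when 1 replicate was left out. Those lower (1139) became 289, 434, 134 and 590, and 701 to 1627. The change between times, 0 genes, became 3 without replicate 3 (0 to 3 over the replicates left out). All 224 calls kept their direction in every alternative that tested them all, except 1 gene each with normexp and with no filter, and 125 passed the limits with normexp. Percentile scaling (205), quantile normalisation (218), normexp (179), single probes (242) and the deposited log2 values (301) stayed within 1.5 times of 224. With the deposited values 140 of the 301 were higher. Among named genes 2022 values kept their side of the limits, 565 fell short, 34 newly passed and 12 turned sign, none past the limits: Pdia3 with normexp (0.025), Prkca with quantile normalisation (0.014), single probes (0.071) and array weights (0.012), and, over the replicates left out, Mcm7 (-0.009 to 0.243), Pdia3 (-0.266 to 0.208, and 0.183 without replicate 4), Map2k4 (-0.008 to 0.162), Prkca (-0.032 to 0.030), Nlrp3 (-0.118 to 0.270) and Rev3l (-0.091 to 0.019, and 0 without replicate 4). The causes were not tested.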

Other observations

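Further lists had few members past the limits at 6 h in Ang II+Los against Control, where 6.51% of all genes were higher and 6.93% lower. Of 20 genes that feed back on ERK signalling 5 rose (25%) and 1 fell past the limits: the transcription factors Etv1 (0.43 ± 0.11) and Etv4 (0.30), the phosphatases Dusp6 (0.28) and Dusp7 (0.38), and Phlda1 (0.37) rose, and the inhibitor Spry1 (-0.29) fell. Without replicate 2 it was 2 and 1. Of 41 nuclear pore and transport genes 6 rose (14.6%), among them Nup107 (0.51), the importin Kpna3 (0.45 ± 0.10, but 0.15 with normexp background correction) and Aaas (0.39 ± 0.09), and Ipo4 fell. Of 50 actin genes 3 rose (6%, no more than of all genes). They were Capzb (0.42 ± 0.08, adjusted p = 0.0394 in limma), Cap1 (0.37 ± 0.09) and Pfn1 (0.35), while Acta2 (-0.57) and Pdlim1 (-0.30) fell. Capzb and Cap1 passed the limits whichever replicate was left out. Acta2 did not pass without replicate 2, 3 or 4, or with normexp background correction (-0.14).

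Of 20 circadian clock genes Arntl2, a partner of CLOCK, rose by 0.80 ± 0.22 (0.41 without replicate 2, and 0.17, under the fold limit, with normexp background correction), and the repressors Per2 (-0.45 ± 0.13) and Cry1 (-0.38) fell. Without replicate 4 none of the list was lower. Of 18 p53 targets 4 fell, Tp53inp1 (-0.46), Gadd45a (-0.43), the death gene Bbc3 (-0.28) and Plk2 (-0.27), and Ei24 rose (0.30), but without replicate 4 none fell. Glycolysis and hypoxia genes split, with Pfkl (0.37 ± 0.08), Gbe1 (0.32), Pdk1 (0.32), Pfkfb4 (0.29) and Gpi (0.27) higher and the glucose transporter Slc2a1 (-0.33) and Vegfa lower, of 38 tested. The 41 proteasome subunits had 3 higher (7.32%) and 1 lower (2.44%), near or under the shares of all genes, and without replicate 2 none passed.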
